A study of Mus musculus with 8 samples.

Results

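Complement is a set of plasma and tissue proteins that mark surfaces for removal, and 7 of its mouse genes are described here in cultured 3T3-L1 cells: C3, C4b, Cfb, Cfd (adipsin), C1ra, C1s1 and Serping1. They were chosen by symbol, through the Ensembl identifiers of a table of raw read counts with 49585 genes. The cells are a mouse preadipocyte line that can turn into fat cells in culture. RNA was sequenced from 8 libraries in 4 groups of 2, each taken on day 7. The 2D uninduced group grew flat and the 3D uninduced group grew as hanging-drop spheroids seeded with about 20000 cells in 28 µL. The 2D induced and 3D induced groups also received 10 µM troglitazone (a PPAR-gamma agonist) and 1 µg/ml insulin on each of the 7 days. Their first 2 days added 250 nM dexamethasone (a glucocorticoid) and 10 nM triiodothyronine. All 4 groups shared a medium with 10% calf serum and methylcellulose. The labels call the samples independently prepared without saying whether they came from separate cultures, so the spread behind each p-value is that of these samples and may be technical.

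Complement is started by antibody or lectin binding, or by the alternative route, and all routes cut C3. In the antibody route the proteases C1r and C1s cut C4 and C2, and the inhibitor encoded by Serping1 blocks C1r and C1s. In the alternative route factor B, encoded by Cfb, joins a C3 fragment and is cut by factor D, encoded by Cfd. Factor D is also called adipsin because fat cells make and secrete it, and it is known to appear late in fat cell development. The liver makes most plasma complement, and fibroblasts and fat cells are known local sources.

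The libraries held 11839374 to 21169390 counts, so 1 CPM (counts scaled to library size, with TMM factors) stood for 11.2 to 20.1 counts. Of 15255 genes with enough counts to be tested, 6 were members. Cfb had too few counts, and Cfd passed the filter only through the 2D induced group, where it was highest. The 3D induced libraries differed most from each other: 2159 tested genes (14.2%) differed by at least 2-fold between replicates 1 and 2, against 380 (2.49%), 535 (3.51%) and 561 (3.68%) in the other pairs (flat uninduced, flat induced and uninduced spheroids). Of 8 macrophage and leukocyte markers, Ptprc, Adgre1 and Tyrobp had 0 counts in all libraries, Itgam and Fcer1g had too few to be tested, and the 8 together stood at 11.9 to 25.3 CPM. Most of that was Csf1r, at 6.41 to 16.9 CPM. Cd68, at 0.536 to 10.6 CPM, was called higher in 3D induced than in 2D induced cultures (3.66 ± 0.61, adjusted p = 0.00498, edgeR). Lyz2, at 0.176 to 6.12 CPM, was called lower in spheroids without induction (-2.75 ± 0.55, adjusted p = 0.0126) and with it (-2.64 ± 0.67, adjusted p = 0.0241). The part of these markers in the complement results was not tested. The 6 hepatocyte markers summed to 0 to 0.117 CPM, with Ttr, F2 and Serpina1a at 0. Calls needed both a change of 2-fold or more and a Benjamini-Hochberg adjusted p, over all tested genes, below 0.05 by the quasi-likelihood test of edgeR. Differences between groups are on the log2 scale and stand with a standard error derived from that test (2 libraries a group). It is the size of the difference divided by the square root of the F value, and the 95% intervals of differences are built from it. In these bulk libraries fewer cells of a type and less RNA per cell cannot be told apart.

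**Figure D1:**
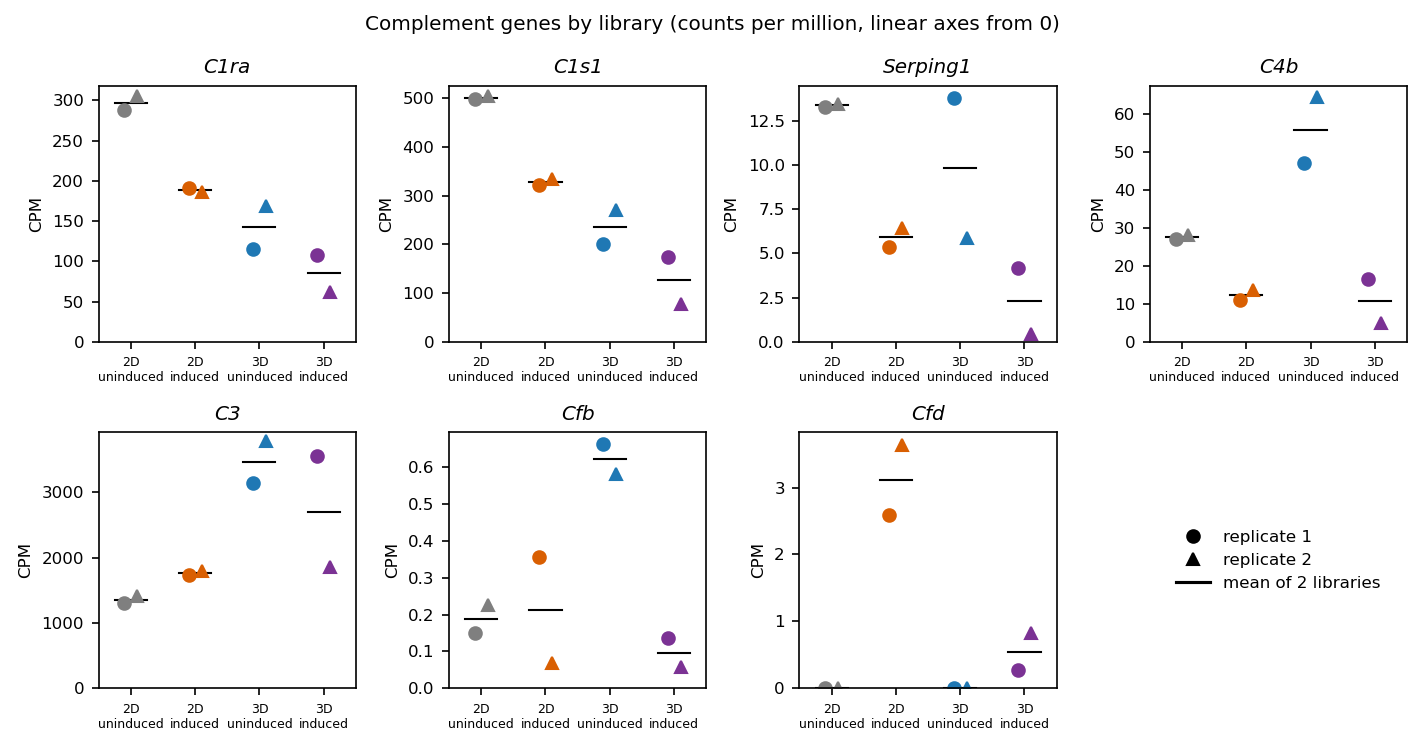
Level of each of the 7 complement genes in each library (CPM, linear axes from 0), by group, with circles for replicate 1, triangles for replicate 2 and bars for the mean of 2 libraries. C3 stood highest in spheroids, C1ra and C1s1 stood highest in 2D uninduced cultures, and Cfd had counts in induced cultures only.

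The proteases of the first complement component were both highest in flat uninduced culture and lower in spheroids. C1ra (ENSMUSG00000055172) encodes C1r, which activates C1s, and C1s1 (ENSMUSG00000038521) encodes C1s, which cuts C4 and C2. In GRCm38 with GENCODE vM21, C1ra lies on chromosome 6 from 124512405 to 124523443 on the plus strand, and C1s1 from 124530345 to 124542359 on the minus strand. C1ra stood at 288 and 306 CPM in the flat uninduced pair, 192 and 186 CPM in the flat induced pair, 116 and 168 CPM in the uninduced spheroids and 108 and 61.9 CPM in the induced spheroids. C1s1 stood at 497 and 503 CPM in the flat uninduced pair, 322 and 334 CPM in the flat induced pair, 200.0 and 270.1 CPM in the uninduced spheroids and 174 and 77.8 CPM in the induced spheroids. For both genes the groups fell in that order from high to low, and no 2 neighbouring groups overlapped.

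Spheroids held less C1ra than flat culture whether induced or not. Without induction C1ra averaged 297 ± 12.8 CPM (SD, n = 2) in 2D and 142 ± 37.1 CPM (SD, n = 2) in 3D, a change of -1.06 ± 0.26 (adjusted p = 0.0274, edgeR). With induction it averaged 189 ± 3.95 CPM (SD, n = 2) in 2D and 85.1 ± 32.8 CPM (SD, n = 2) in 3D, a change of -1.15 ± 0.27 (adjusted p = 0.0166, edgeR). C1s1 fell with the spheroid format in induced cultures, from 328 ± 8.04 to 126 ± 67.9 CPM (SD, n = 2), by 1.38 ± 0.33 on the log2 scale (adjusted p = 0.0190, edgeR). In uninduced cultures C1s1 averaged 500.4 ± 4.29 CPM (SD, n = 2) in 2D and 235 ± 49.6 CPM (SD, n = 2) in 3D, a difference of -1.09 ± 0.33 that missed the threshold (adjusted p = 0.0508, edgeR). Leaving out 3D induced replicate 1 or 2, which takes no part in that difference but adds to the shared spread, left it at -1.09 with adjusted p of 0.000116 and 0.000120. DESeq2 called it too (-1.11, adjusted p = 0.00289). Of 16 alternative fits 6 called it and the others did not, with differences from -1.32 to -0.89.

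These calls rested on few libraries. The uninduced difference of C1ra missed the threshold without any 1 of the 2D uninduced, 2D induced or 3D uninduced libraries (adjusted p 0.0566 to 0.180, edgeR). The induced difference missed it without 2D induced replicate 1 or 2 for C1ra (adjusted p = 0.0880 and 0.0818) and for C1s1 (adjusted p = 0.0853 and 0.0936). Without 3D induced replicate 2 it was under 2-fold, at -0.80 for C1ra and -0.92 for C1s1. Fitted on the 4 induced libraries alone, both missed it (adjusted p = 0.0695 and 0.0886), as did C1s1 with no filter on low counts (adjusted p = 0.0964). The induced difference of C1s1 was -2.08 without 3D induced replicate 1.

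Markers of preadipocytes and fibroblasts also summed to lower levels in spheroids. The 7 of the list (Pdgfra, Dlk1, Col1a1, Col3a1, Thy1, Cd34 and Ly6a) summed to 26570 and 27320 CPM in the flat uninduced pair, 16638 and 16150 CPM in the flat induced pair, 9554 and 10948 CPM in the uninduced spheroids and 12481 and 4493 CPM in the induced spheroids. Most of each sum came from Col3a1, Col1a1 and Dlk1, at 12353, 8506 and 4413 CPM in 2D uninduced replicate 1. Without induction 2 of the 7 were called lower in spheroids, Dlk1 (-2.57 ± 0.37, adjusted p = 0.00370, edgeR) and Col3a1 (-1.32 ± 0.38, adjusted p = 0.0436). Of all tested genes 4.02% were called lower there, and the list median was -0.996 against 0.03 over all tested genes. With induction 2 were called lower, Dlk1 (-1.83 ± 0.36, adjusted p = 0.00919, edgeR) and Thy1 (-1.53 ± 0.18, adjusted p = 0.00136). There 5.46% of tested genes were called lower, and the list median was -0.93 against 0.03. Pdgfra differed by -0.13 ± 0.20 and -0.41 ± 0.20 and passed in neither state, and Cd34 stood at only 0.509 to 1.49 CPM. The part of these markers in the C1ra and C1s1 results was not tested.

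Induction was called for neither protease. In flat culture the induced libraries lay below the uninduced ones, with differences of -0.65 ± 0.26 for C1ra (95% interval -1.26 to -0.04, adjusted p = 0.184) and -0.61 ± 0.32 for C1s1 (95% interval -1.36 to 0.14, adjusted p = 0.311). In spheroids they were -0.74 ± 0.26 (95% interval -1.35 to -0.13, adjusted p = 0.285) and -0.90 ± 0.33 (95% interval -1.66 to -0.14, adjusted p = 0.298). The 3D induced replicates were far apart here. Without replicate 1, which leaves 1 library in that group, the spheroid difference was -1.20 for C1ra and -1.60 for C1s1.

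C1ra and C1s1 lie within a cluster of 143 kb on chromosome 6 with their copies C1rb and C1s2 and the related gene C1rl. The sequences overlap: 50.8% of the 50-base stretches of C1ra transcripts and 35.1% of those of C1s1 also occur in other genes, mostly C1rb and C1s2, so the counting could split reads between copies. C1rb averaged 257 ± 2.99 CPM (SD, n = 2) in the flat uninduced pair and 189 ± 4.02 CPM in the flat induced pair, 129 ± 1.84 CPM in the uninduced spheroids and 75.4 ± 26.7 CPM in the induced spheroids. C1s2 averaged 65.0 ± 1.42, 45.5 ± 2.30, 32.1 ± 4.55 and 17.4 ± 8.57 CPM (SD, n = 2) in the same order. The means of both copies thus had the group order of C1ra and C1s1.

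C1s2 fell in spheroids in both states, by 1.02 ± 0.29 without induction (adjusted p = 0.0422, edgeR) and by 1.40 ± 0.30 with it (adjusted p = 0.0121, edgeR) on the log2 scale. The first call was lost without any 1 of the 2D libraries or of the 3D uninduced libraries (adjusted p 0.0786 to 0.234), and the second without 2D induced replicate 1 or 2 (adjusted p = 0.0620 and 0.0763) or, by fold, without 3D induced replicate 2 (-0.96). The second was -2.01 without 3D induced replicate 1. With the 4 induced libraries alone the second was lost for C1s2 (adjusted p = 0.0772) and C1rb (adjusted p = 0.0506). C1rb fell in induced spheroids against induced flat culture, by 1.33 ± 0.21 (adjusted p = 0.00408, edgeR). Without induction its difference of -0.997 ± 0.207 (adjusted p = 0.0149) lay just under 2-fold, and it was past 2-fold without 2D induced replicate 1 or 2, at -1.01 for each. C1rl, at the end of the cluster, differed by 0.25 ± 0.15 (adjusted p = 0.281) and -0.16 ± 0.15 (adjusted p = 0.475). Per kilobase of exon, C1s1 stood at 1.20 to 1.71 times C1ra across the 8 libraries, and C1s2 at 0.151 to 0.171 times C1s1. With copies summed (an alternative chosen after seeing the data), the same numbers of members were called in each comparison. An antisense gene, Gm16567, covers 18.4% of the C1s1 exons and held 28.6 to 31.3% as many counts as C1s1 in every library. Whether reads were counted by strand is not given in the sources used here, so reads of these genes may not be separable.

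**Figure D2:**
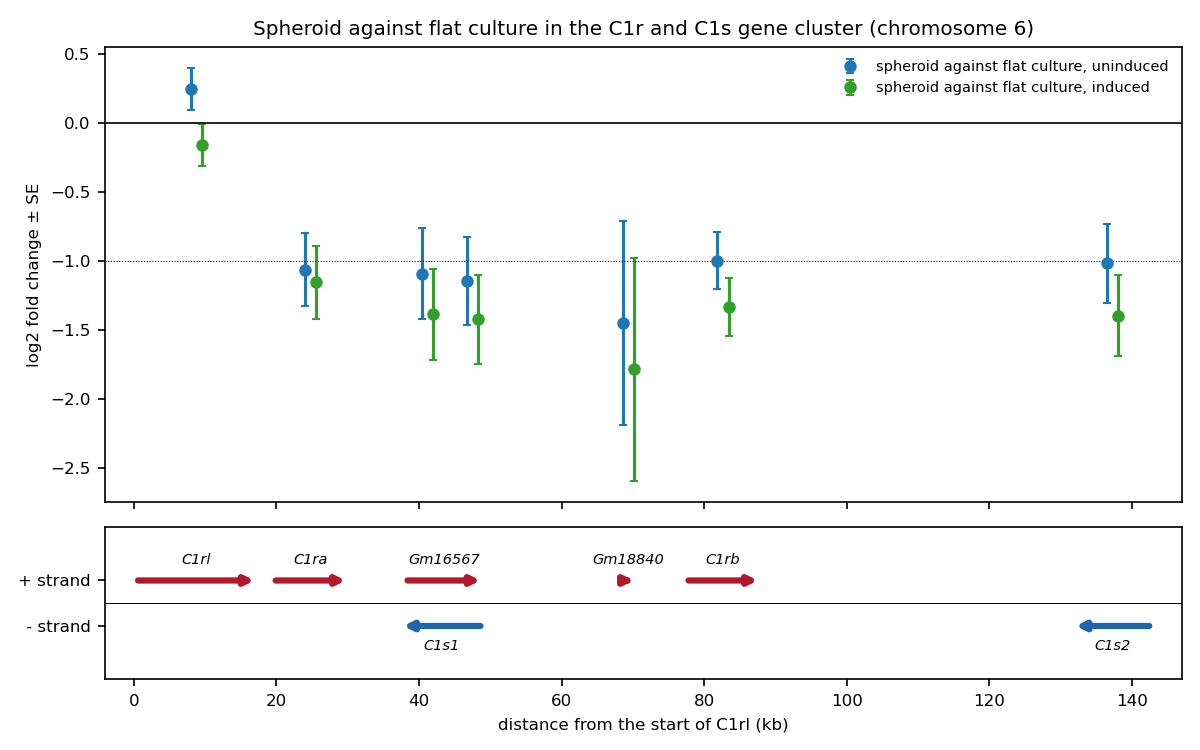
Upper panel: log2 fold change ± SE of spheroid against flat culture (n = 2 libraries per group) for the 7 tested genes of the chromosome 6 cluster, placed by distance in kb from the start of C1rl. The dotted line marks 2-fold lower. Lower panel: the genes by strand. C1rl lies near 0 and the other genes lie near or below -1.

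The start regions of C1ra and C1s1 are shown because these neighbours, read from opposite strands, had the same order of groups. Each RefSeq entry of GRCm38.p6 runs from 250 bases before to 50 after a start site. Letters searched on both strands were GAAANNGAA (interferon response), TTCNNNGAA (interferon-gamma activated site), GGGNNTTCC (NF-kB), TTGCNNAA (C/EBP), AGGTCA (nuclear receptors), TATAAA, the direct repeat bound by PPAR factors and the palindrome bound by the glucocorticoid receptor. The capitals mark the matches, in C1ra (chr6:124512371-124512670, plus strand) and C1s1 (chr6:124542310-124542609, minus strand).
C1ra: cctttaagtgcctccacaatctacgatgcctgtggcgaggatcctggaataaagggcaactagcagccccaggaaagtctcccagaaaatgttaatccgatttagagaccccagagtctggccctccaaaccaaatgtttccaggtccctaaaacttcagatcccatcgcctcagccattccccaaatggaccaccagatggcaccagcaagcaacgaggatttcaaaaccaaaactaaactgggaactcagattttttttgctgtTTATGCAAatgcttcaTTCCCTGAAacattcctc
C1s1: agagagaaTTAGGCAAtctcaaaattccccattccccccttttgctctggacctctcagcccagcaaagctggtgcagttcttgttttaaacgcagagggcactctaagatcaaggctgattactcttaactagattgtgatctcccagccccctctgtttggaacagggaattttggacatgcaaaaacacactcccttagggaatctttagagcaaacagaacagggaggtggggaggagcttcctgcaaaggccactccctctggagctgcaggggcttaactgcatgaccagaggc
C1ra held the C/EBP letters on the minus strand at +17 and the interferon-gamma letters at +33, and C1s1 held the C/EBP letters on the minus strand at -242. The GENCODE start of C1ra, 124512405, lies near the beginning of its window, before the RefSeq start site. By GENCODE both C1ra matches are therefore inside the gene. Those letters are common: of 32851 promoters of the same length, 10.8% held the C/EBP letters and 8.30% the interferon-gamma letters. A match is a description of the sequence. The second C1s1 entry held none of the letters searched.

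The inhibitor of these proteases was at a low level in all groups and differed widely between spheroid replicates. Serping1 (ENSMUSG00000023224, chromosome 2 from 84765387 to 84775444, minus strand) encodes the C1 inhibitor, which also restrains the kinin system. It stood at 13.3 and 13.4 CPM in the flat uninduced pair, 5.36 and 6.44 CPM in the flat induced pair, 13.8 and 5.89 CPM in the uninduced spheroids and 4.20 and 0.468 CPM in the induced spheroids, the last being 8 counts. Both 2D groups were tight, and the 3D replicates were 1.23 (uninduced) and 3.16 (induced) log2 units apart, replicate 2 being the lower in each. No contrast of Serping1 passed the test. Induction gave -1.17 ± 0.69 in flat culture (95% interval -2.79 to 0.44, adjusted p = 0.362) and -2.10 ± 0.75 in spheroids (95% interval -3.85 to -0.36, adjusted p = 0.287). The spheroid format gave -0.44 ± 0.67 without induction (adjusted p = 0.677) and -1.37 ± 0.76 with it (adjusted p = 0.209).

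Single spheroid libraries changed the size of the spheroid differences. Without 3D induced replicate 1, which leaves 1 library in that group, Serping1 differed by -4.37 with induction in spheroids. In spheroids against flat culture when induced it then differed by -3.64. Induction in flat culture gave -1.17 without 3D induced replicate 1 or 2. Of 16 alternative fits 4 called the flat induction and the others did not. Limma-voom with group weights was 1 of those that did (-1.16, adjusted p = 0.00135). Without 3D uninduced replicate 2 the uninduced format difference changed sign, to 0.05. Per kilobase of exon, Serping1 stood at 0.810 to 9.28% of C1s1, its target, and was lowest in 3D induced replicate 2.

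C4b, the substrate of C1s, was highest in uninduced spheroids and lower in both induced groups. C4b (ENSMUSG00000073418, chromosome 17 from 34728380 to 34743882, minus strand) encodes C4, which attaches to surfaces and forms part of the enzyme that cuts C3. It stood at 26.9 and 28.1 CPM in the flat uninduced pair, 11.0 and 13.6 CPM in the flat induced pair, 46.9 and 64.3 CPM in the uninduced spheroids and 16.4 and 4.97 CPM in the induced spheroids. The uninduced libraries all lay above the induced ones of the same format, and the 3D induced libraries lay on either side of the 2D induced pair.

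C4b averaged 55.6 ± 12.3 CPM in uninduced and 10.7 ± 8.11 CPM in induced spheroids (SD, n = 2), a difference of -2.39 ± 0.46 (95% interval -3.46 to -1.31) that missed the threshold (adjusted p = 0.0567, edgeR). It passed with DESeq2 (-2.40, adjusted p = 2.28e-06) and with limma-voom and group weights (-2.65, adjusted p = 0.0371). It also passed without 3D induced replicate 1 (-3.48) or 2 (-1.76), each of which leaves 1 library in that group. Of 16 alternative fits, these 4 called it and the others did not. In flat culture it averaged 27.5 ± 0.838 CPM without and 12.3 ± 1.83 CPM with induction (SD, n = 2), a difference of -1.16 ± 0.45 (95% interval -2.21 to -0.10, adjusted p = 0.173). That difference was called without 3D induced replicate 1 or 2 (adjusted p = 0.000209 and 0.000248) and by DESeq2 (adjusted p = 0.0478). The uninduced format difference was 1.01 ± 0.43 (adjusted p = 0.136), and it too was called without either of those libraries (1.02, adjusted p = 0.000126 and 0.000147). Of the 16 alternative fits, 5 called the flat induction and 4 the uninduced format difference, and the others called neither. The induced format difference was -0.21 ± 0.47 (adjusted p = 0.766, edgeR). It was -1.31 without 3D induced replicate 1 and turned to 0.41 without replicate 2.

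C4a, which shares 30.6% of its 50-base stretches with C4b, had another pattern. C4a averaged 0.712 ± 0.0483 CPM in the flat uninduced pair, 0.835 ± 0.587 CPM in the flat induced pair, 3.48 ± 0.121 CPM in the uninduced spheroids and 3.30 ± 1.36 CPM in the induced spheroids (SD, n = 2). It rose with the spheroid format by 2.27 ± 0.52 without induction (adjusted p = 0.0203, edgeR) and by 2.01 ± 0.52 with it (adjusted p = 0.0257, edgeR). Both calls of C4a were lost without any 1 of the 4 uninduced libraries (adjusted p 0.0517 to 0.133), and the second also without 2D induced replicate 2 (1.39, adjusted p = 0.142; it was 2.95 without 2D induced replicate 1), by limma-voom (adjusted p = 0.0616) and with the 4 induced libraries alone (adjusted p = 0.112). With C4a added to C4b, the induced format difference was 0.08 in place of -0.21.

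C3 was the most abundant member, and it was highest in spheroids. C3 (ENSMUSG00000024164, chromosome 17 from 57203970 to 57228136, minus strand) encodes the protein on which all routes meet. It stood at 1302 and 1406 CPM in the flat uninduced pair, 1736 and 1790 CPM in the flat induced pair, 3149 and 3791 CPM in the uninduced spheroids and 3561 and 1850 CPM in the induced spheroids. The 3D libraries all lay above the 2D ones, and 3D induced replicate 2 lay close to the 2D induced pair. Both 3D groups overlapped.

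The uninduced format difference was called: C3 rose from 1354 ± 73.2 to 3470 ± 454 CPM (SD, n = 2), by 1.36 ± 0.28 (2.56-fold, adjusted p = 0.0145, edgeR). It was lost without any 1 of the 4 uninduced libraries (1.22 to 1.49, adjusted p 0.0653 to 0.120). With induction the means were 1763 ± 38.0 and 2705 ± 1210 CPM (SD, n = 2), a difference of 0.62 ± 0.28 (95% interval -0.02 to 1.26, adjusted p = 0.129). Without 3D induced replicate 2, which leaves 1 library in that group, that difference was 1.01. Induction gave 0.38 ± 0.28 in flat culture (95% interval -0.26 to 1.02, adjusted p = 0.461) and -0.36 ± 0.28 in spheroids (95% interval -0.999 to 0.281, adjusted p = 0.692), the latter turning to 0.04 without 3D induced replicate 2.

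C3 took 0.124 to 0.169% of all counts in the 2D libraries and 0.193 to 0.402% in the 3D libraries. Per kilobase of exon its mean ranked 160 of 15217 genes in flat uninduced and 128 in flat induced cultures, 27 in uninduced spheroids and 41 in induced spheroids. C1s1 went the other way, from rank 298 in 2D uninduced to 1322 in 3D induced cultures, and C1ra from 503 to 1992. On that scale C3 stood at 2.62 times C1ra in 2D uninduced replicate 1 and at 19.1 times C1ra in 3D induced replicate 1. Of the counts of all 7 members, C3 held 61.2 to 62.3% in the flat uninduced pair, 76.5 to 76.7% in the flat induced pair, 88.2 to 89.3% in the uninduced spheroids and 92.2 to 92.7% in the induced spheroids. The share was close within each pair, 3D induced included, where C3 itself differed by 0.94 log2 units between replicates.

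The C3 start region (chr17:57228087-57228386, minus strand, GRCm38.p6) is shown for the member with the highest level, with matches to the same letters in capitals.
C3: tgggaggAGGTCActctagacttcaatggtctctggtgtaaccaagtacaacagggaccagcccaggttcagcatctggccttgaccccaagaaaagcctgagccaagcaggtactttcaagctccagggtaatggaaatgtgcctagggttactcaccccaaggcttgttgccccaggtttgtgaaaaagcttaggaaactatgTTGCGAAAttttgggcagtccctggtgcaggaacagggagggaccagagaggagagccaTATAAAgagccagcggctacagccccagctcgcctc
AGGTCA stood at -243, the C/EBP letters at -45 and TATAAA at +15, each on the gene's own strand. AGGTCA is in 16.3% and TATAAA in 13.6% of the promoters of that length.

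Of the alternative route, factor B was barely detected. Cfb (ENSMUSG00000090231, chromosome 17 from 34856374 to 34862518, minus strand) had 3 and 3 counts in the flat uninduced pair, 4 and 1 in the flat induced pair, 9 and 8 in the uninduced spheroids and 2 and 1 in the induced spheroids. It was too low to be tested. Summed over each pair, these were 6 counts (exact 95% Poisson interval 2.20 to 13.1), 5 (1.62 to 11.7), 17 (9.90 to 27.2) and 3 (0.619 to 8.77), intervals that cover counting error only. In CPM, uninduced spheroids averaged 0.623 ± 0.0579 and the other groups 0.0969 to 0.214. Gm20547, a gene on the same strand, covers 79.5% of the Cfb exons and had 0 counts in all libraries. How reads shared by both genes were counted is not given in the sources used here, so these low counts may understate Cfb.

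Adipsin appeared with induction, mostly in flat culture. Cfd (ENSMUSG00000061780, chromosome 10 from 79890853 to 79892655, plus strand) had 0 counts in all 4 uninduced libraries, 29 and 52 counts in 2D induced and 4 and 14 counts in 3D induced libraries. A count of 0 over a pair allows up to 3 counts, or 0.0899 CPM in 2D uninduced and 0.1098 CPM in 3D uninduced cultures. The induced levels were 2.59 and 3.64 CPM in 2D and 0.271 and 0.819 CPM in 3D. Every induced library thus held Cfd and the 2D induced libraries held more than the 3D ones.

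Against that limit of 3 counts, Cfd stood 35.3-fold higher with induction in flat culture (81 counts against 0) and 5.14-fold higher in spheroids (18 counts against 0). These ratios leave out the counting error of the induced side, with 95% intervals of 64.3 to 101 and 10.7 to 28.4 counts. The 2D induced pair held 5.63 times the level of the 3D induced pair (95% counting interval 3.35 to 9.97). The edgeR test called Cfd in flat induction (adjusted p = 0.0118) and in the induced format comparison (-2.48 ± 0.62, adjusted p = 0.0335), but not in spheroid induction (adjusted p = 0.162). Since Cfd was kept only through its highest group, it had to differ in the 2 comparisons with that group, and those p-values are given as a description. With no filter on low counts the same comparisons gave adjusted p of 9.02e-11 and 0.00101. The flat induction call was lost without any 1 of the 2D libraries (adjusted p 0.0743 to 0.100), and the induced format call without 2D induced replicate 1 or 2 (adjusted p = 0.111 and 0.179), by limma-voom (adjusted p = 0.157) and with the 4 induced libraries alone (adjusted p = 0.0676). That format difference was -3.49 without 3D induced replicate 2. The spheroid induction was called with no filter on low counts (adjusted p = 0.00412, edgeR). Per kilobase of exon, Cfd ranked 9515 of 15217 genes in 2D induced and 13483 in 3D induced cultures.

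Cfd is known as a marker of mature fat cells, so its level is given beside 8 adipocyte markers. All 8 were called higher with induction in flat culture, where 3.17% of tested genes were. All 8 were also called lower in 3D induced against 2D induced cultures, where 5.46% of tested genes were. In 3D induced replicates 1 and 2, Cfd stood at 8.69 and 26.3% of its 2D induced mean. Adipoq, which encodes the hormone adiponectin, stood at 3.01 and 8.94%, and the hormone gene Retn at 1.26 and 7.40%. Cidec, which acts in lipid droplet fusion, stood at 3.40 and 13.1%, and the lipase gene Lipe at 19.9 and 33.8%. Fabp4, a fatty acid carrier, stood at 22.0 and 45.6%, while Plin1, a lipid droplet coat protein, stood at 45.5 and 42.1%. The transcription factor genes Cebpa and Pparg stood at 15.5 and 13.5% and at 46.5 and 44.5%. For 6 of these 9 genes, Cfd among them, replicate 2 was the higher. The opposite held for C3, C4b, C1ra, C1s1 and Serping1, which were lower in replicate 2.

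**Figure D3:**
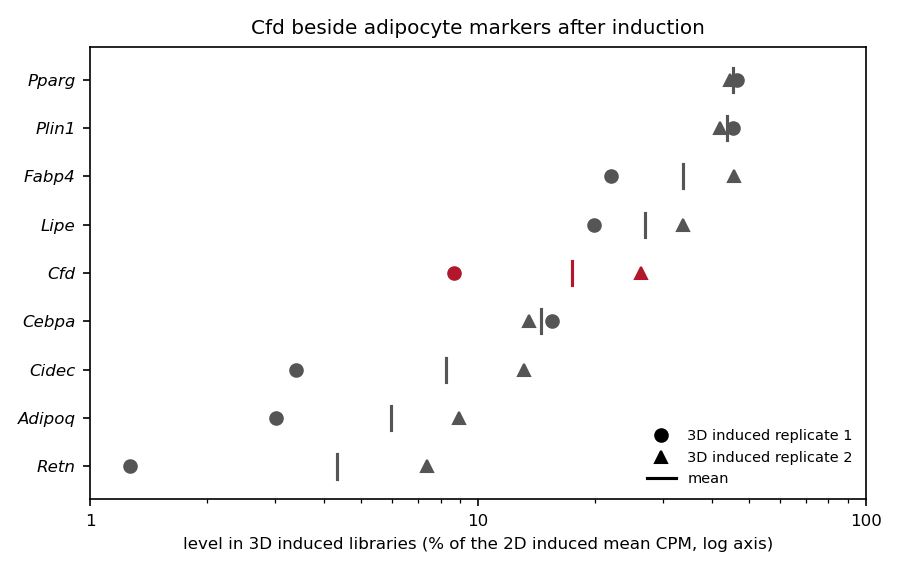
Level of Cfd and of 8 adipocyte markers in each 3D induced replicate as a percent of the gene's 2D induced mean (n = 2 libraries, log axis), with circles for replicate 1, triangles for replicate 2 and bars for their mean. Cfd, at 8.69 and 26.3%, lies between Retn and Adipoq, which are lower, and Pparg and Plin1, which are higher.

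The Cfd start region (chr10:79890603-79890902, plus strand, GRCm38.p6) is shown because Cfd had no counts in uninduced cultures and was detected in all induced ones.
Cfd: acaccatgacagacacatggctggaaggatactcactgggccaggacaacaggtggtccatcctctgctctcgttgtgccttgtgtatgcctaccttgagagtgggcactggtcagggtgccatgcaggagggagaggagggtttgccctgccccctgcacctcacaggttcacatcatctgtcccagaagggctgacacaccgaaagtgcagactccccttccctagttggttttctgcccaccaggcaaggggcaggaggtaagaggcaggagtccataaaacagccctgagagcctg
None of the letters searched is in this window, the PPAR direct repeat and the glucocorticoid palindrome included. Over all promoters the direct repeat was in 0.0396% and the palindrome in 0.00913%.

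Set side by side, few members were called in any comparison. Cfd, kept by the filter only through its highest group, is left out of the counts here. Induction in flat culture called 0 of the 5 other tested members by edgeR (2 had an unadjusted p under 0.05, and DESeq2 called 1, C4b), where 4.52% of tested genes were called (3.17% higher and 1.34% lower). Induction in spheroids called 0 of the 5 by edgeR (4 had an unadjusted p under 0.05, and DESeq2 called 1, C4b), where 0.911% of genes were called (0.583% higher and 0.328% lower). The uninduced format comparison called 2, C3 higher and C1ra lower, where 9.44% were called (5.42% higher and 4.02% lower). The induced format comparison called 2, C1ra and C1s1, both lower, where 12.4% were called (6.94% higher and 5.46% lower). The medians over the 5 members were -0.65, -0.90, -0.44 and -1.15 in these comparisons, and those over all tested genes 0.00, 0.04, 0.03 and 0.03. Each format comparison shares its libraries with the induction comparisons, so the 4 are not independent.

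Groups of 2 often separate without a call. Left out here are Cfd, kept only through its highest group, and Cfb, which is outside the tested genes behind the shares. In flat culture the induced libraries of C3 lay above the uninduced ones, and those of C4b, C1ra, C1s1 and Serping1 below them. Of tested genes 69.6% did not overlap there (35.1% higher and 34.5% lower). In spheroids C4b, C1ra, C1s1 and Serping1 lay lower with induction and C3 overlapped, against 32.6% not overlapping (18% higher and 14.6% lower). Without induction C3 and C4b lay higher in spheroids, C1ra and C1s1 lower, and Serping1 overlapped, against 73.3% (38.1% higher and 35.2% lower). With induction C3 lay higher, C1ra, C1s1 and Serping1 lower, and C4b overlapped, against 63.2% (31.9% higher and 31.2% lower).

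**Figure D4:**
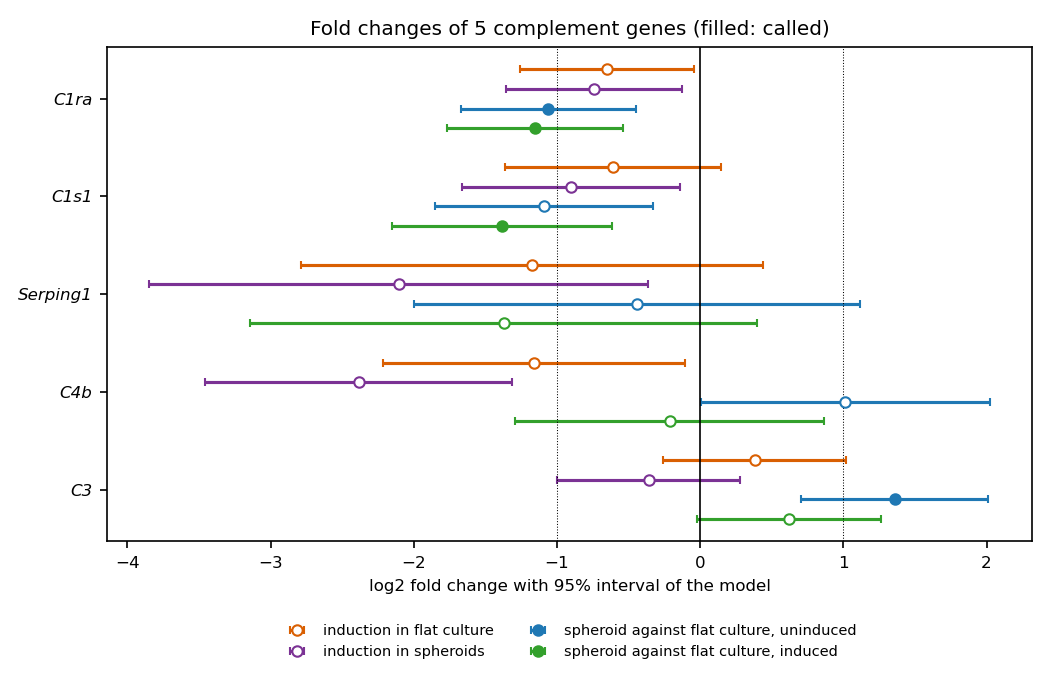
Log2 fold change with the 95% interval derived from the edgeR test for 5 members in the 4 comparisons (n = 2 libraries per group), Cfd left out because its uninduced groups were at 0. Filled points were called, and the dotted lines mark 2-fold. C3 lies above 0 and C1ra and C1s1 below it in both format comparisons.

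The interaction asks whether induction acted differently in spheroids than in flat culture. It could be fitted for 5 members, Cfd being at 0 in both uninduced groups. Of these it called 0 by edgeR, 0 had an unadjusted p under 0.05, and DESeq2 called 0 as well, where 0.38% of tested genes were called (0.0393% higher and 0.341% lower). The differences of the inductions were -0.74 ± 0.39 for C3 (adjusted p = 0.736), -1.23 ± 0.64 for C4b (adjusted p = 0.727), -0.93 ± 1.01 for Serping1 (adjusted p = 0.915), -0.29 ± 0.46 for C1s1 (adjusted p = 0.949) and -0.09 ± 0.37 for C1ra (adjusted p = 0.986). Without 3D induced replicate 1, which leaves 1 library in that group, it was -1.29 for C3 and -2.33 for C4b. Without replicate 2 it was called for no member.

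A list of 53 other complement genes covered the rest of the pathway. Of these, 16 had 0 counts in all libraries, which allows up to 3 counts each. They included the C1q chains C1qa, C1qb and C1qc, which carry C1r and C1s, the lectins Mbl1 and Mbl2, and C6, C8a and C8b of the pore that ends the cascade. Another 13 had 1 to 20 counts in all, and 20 were tested. Both induction comparisons called 0 of the 20 by edgeR. An unadjusted p under 0.05 was reached by 6 in flat culture and 7 in spheroids, and DESeq2 called Masp1 and Cd93 in flat culture and Masp1 in spheroids, all lower. The lectin protease Masp1 differed by -1.10 ± 0.28 (adjusted p = 0.0528) and -1.45 ± 0.29 (adjusted p = 0.0631), and Cd93, a receptor of endothelial and myeloid cells, by -2.20 ± 0.56 (adjusted p = 0.0514) and -1.76 ± 0.55 (adjusted p = 0.208), by edgeR. The uninduced format comparison called 3 higher (C4a, Masp2 and Cfp) and 1 lower (C1s2), where 5.42% of all tested genes were called higher and 4.02% lower. DESeq2 called these 4 and C1rb. The induced one called 4 higher (C4a, Masp2, Cfp and Cd46) and 2 lower (C1rb and C1s2), where 6.94% were called higher and 5.46% lower, and DESeq2 called the same 6. The medians over the 20 genes were 0.13 and 0.07, against 0.03 in each over all tested genes.

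Masp2, a protease of the lectin route that cuts C4 and C2, rose most of these. Its means were 2.33 ± 0.122 CPM in the flat uninduced pair, 1.55 ± 0.290 CPM in the flat induced pair, 12.7 ± 0.444 CPM in the uninduced spheroids and 14.9 ± 4.95 CPM in the induced spheroids (SD, n = 2). The change was 2.45 ± 0.28 without induction (adjusted p = 0.00182, edgeR) and 3.25 ± 0.30 with it (adjusted p = 0.000727, edgeR). Tardbp, on the opposite strand, covers 54.9% of the Masp2 exons and changed less, by 0.79 and 0.83. Masp2 held 0.947 to 8.29% as many counts as Tardbp, and what part of them came from Tardbp was not tested.

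Cfp encodes properdin, which stabilises the C3-cutting enzyme of the alternative route. It averaged 1.71 ± 0.241 and 1.51 ± 0.240 CPM in the flat cultures without and with induction, and 6.15 ± 0.457 and 8.49 ± 5.22 CPM in the spheroids (SD, n = 2). It rose by 1.85 ± 0.45 (adjusted p = 0.0254, edgeR) and by 2.47 ± 0.46 (adjusted p = 0.00751, edgeR) with the format. The first call was lost without any 1 of the 2D libraries or of the 3D uninduced libraries (adjusted p 0.0522 to 0.170), and the second without 2D induced replicate 1 or 2 (adjusted p = 0.0675 and 0.0579) and with the 4 induced libraries alone (adjusted p = 0.0580). The second difference was 1.65 without 3D induced replicate 1 and 2.99 without 3D induced replicate 2.

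Cd46, a membrane regulator, averaged 1.07 ± 0.128 CPM in 2D induced and 4.73 ± 2.22 CPM in 3D induced cultures (SD, n = 2), and rose by 2.14 ± 0.59 (adjusted p = 0.0309, edgeR). That call was lost without either 2D induced library (adjusted p = 0.134 and 0.168) or either 3D uninduced library (adjusted p = 0.0586 and 0.0581), by limma-voom (adjusted p = 0.0845) and with the 4 induced libraries alone (adjusted p = 0.0599). In uninduced cultures its difference was 1.59 ± 0.57 (adjusted p = 0.0866), called without 3D induced replicate 1 or 2 (adjusted p = 0.00862 and 0.00795). It was 0.90 without 2D uninduced replicate 1 and 2.61 without 2D uninduced replicate 2. A330023F24Rik, on the opposite strand over 14.2% of the Cd46 exons, changed by 3.30 and 4.69. C2, the partner of C4 in cutting C3, averaged 4.46 to 5.38 CPM in the 4 groups, with format differences of 0.13 ± 0.24 and 0.18 ± 0.24. Gm20547, which overlaps Cfb, also covers 42.8% of the C2 exons on the same strand. Reads shared by both genes may be missing from these C2 levels.

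**Figure D5:**
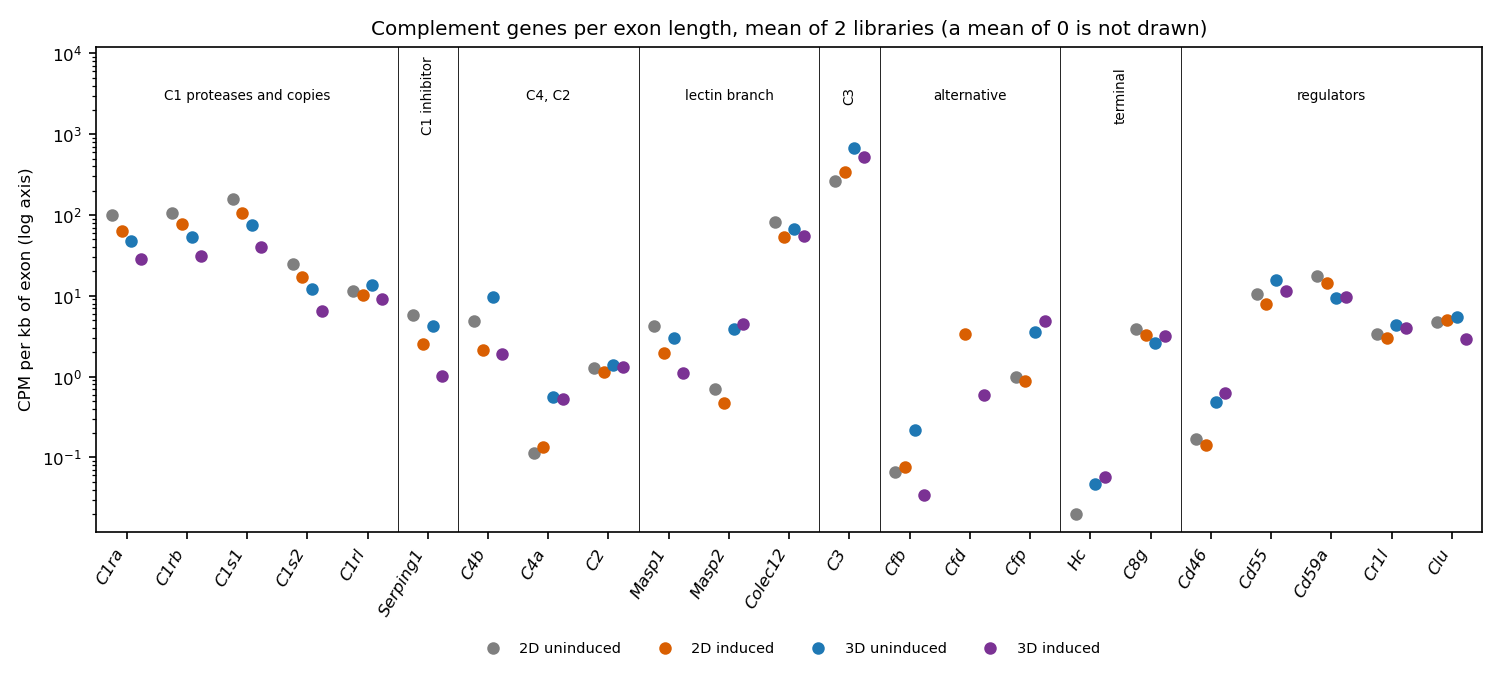
Mean level of members and other complement genes per kilobase of exon (CPM per kb, log axis, mean of 2 libraries, a mean of 0 not drawn), ordered by role. C3 is the highest in each group, and C1ra, C1rb, C1s1 and C1s2 step down from 2D uninduced to 3D induced cultures.

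Lists of known regulators of complement genes and of interferon-stimulated genes are given beside the members. Of 20 regulators and cytokines, 15 were tested. With induction Cebpa (3.63) and Pparg (1.40) rose and Irf9 (-1.11) fell in flat culture, and Cebpa (1.16) rose in spheroids. In the uninduced format comparison Stat3 (1.05), Cebpb (1.28), Il6 (3.44) and Tgfb1 (1.17) rose, and Irf7 (-1.56) and Irf9 (-1.19) fell. In the induced one Il6 (3.41) rose, and Cebpa (-2.79) and Pparg (-1.14) fell. Of all tested genes, flat induction called 3.17% higher and 1.34% lower, and spheroid induction 0.583% higher and 0.328% lower. The uninduced format comparison called 5.42% higher and 4.02% lower, and the induced one 6.94% higher and 5.46% lower. Of 18 interferon-stimulated genes, 5 fell in the uninduced comparison (Isg15, Bst2, Irf7, Psmb8 and Psmb9), with a list median of -1.38. In the induced comparison Cxcl10 (3.87) rose and Bst2 (-1.74), Psmb8 (-1.88) and Psmb9 (-1.39) fell, with a median of 0.23. These counts stand beside 4.02% of all tested genes called lower without induction, and 6.94% higher and 5.46% lower with it. Flat induction called 1 of the 18, Bst2 (-1.09), with a median of -1.72, where 1.34% were called lower. Spheroid induction called 0 by edgeR, 0 had an unadjusted p under 0.05 and DESeq2 called 0, with a median of -0.20. Their summed level was 1583 and 1535 CPM in the flat uninduced pair, 564 and 535 CPM in the flat induced pair, 482 and 621 CPM in the uninduced spheroids and 802 and 154 CPM in the induced spheroids. In the last pair the list's median log2 ratio of replicate 2 to replicate 1 was -2.88, and replicate 2 is the one in which C3, C4b, C1ra, C1s1 and Serping1 were lower. The part of these genes in the complement results was not tested.

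The genes most like each member were sought by Pearson correlation of log2 CPM over the 8 libraries among 11098 genes, as a description over 4 groups of 2. C1ra was nearest to Fstl1 (0.996), Plac8 (0.991) and Fbln7 (0.991). C1s1 was nearest to C1s2 (0.998), Fstl1 (0.997) and Megf6 (0.995), and the correlation of C1ra with C1s1 was 0.992. Serping1 was nearest to Pdgfra (0.996) and Heatr5a (0.987). C4b was nearest to Vangl2 (0.982), C1rl (0.979) and Rapgef3 (0.968), and C3 to Eno2 (0.968), Dram1 (0.964) and Slc29a2 (0.963). Cfd was nearest to Gnpat (0.999), Cs (0.998) and Slc31a1 (0.998). It had no counts in any uninduced library and was kept only through its highest group. Its correlations thus largely reflect that step with induction and show no closer link to these genes. Cs, for example, stood at 165 to 169 CPM in the uninduced libraries, 338 CPM in both 2D induced libraries and 214 and 257 CPM in the 3D induced ones.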

How the data were processed

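Read counts per Ensembl gene were deposited by the authors as whole numbers without normalization. The submitters' processing notes name HISAT2 2.1.0 with build mm10 and featureCounts 1.6.3, and for trimming and quality checks Trimmomatic 0.38 and FastQC 0.11.7. The sources used here give no settings, annotation release or strand option. Columns were matched to samples by description. The 2D uninduced columns carry the numbers 2 and 3, and title numbers 1 and 2 are used here.

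With R 4.3.3, genes without a symbol (259, holding 0.0285% of the counts) were kept in the fit, genes were filtered with filterByExpr (minimum count 10), and library sizes were TMM-scaled. The edgeR 4.0.16 quasi-likelihood model (robust, 1 mean per group, 8 libraries, 4 residual degrees of freedom, two-sided) gave 5 contrasts. Alternatives used DESeq2 1.42.0, limma 3.58.1, other scalings, no filter, subsets of libraries, a replicate block and summed copies. Positions and exon lengths came from GENCODE vM21, and 4 of 7 members matched a RefSeq promoter. The edgeR script was tested on simulated data.

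The members and gene lists were chosen with earlier results of these data known. Named are all members, their copies, other complement genes with a call, and for each tested member the 3 genes most correlated with it (mean log2 CPM of at least 1; no Gm, Rik or member genes). Others were named from the fixed lists beside a member, or as overlapping genes. Some results under this rule are not reported here.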

Additional observations from a re-analysis of the deposited data

Results flagged for a closer look

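Of the 8 adipocyte markers set beside Cfd, 3 responded to induction differently in the formats by the interaction term of edgeR. All 3 were called lower, where 0.341% of tested genes were. The log2 difference (spheroid induction minus flat induction) was -2.46 for Cebpa, -8.69 for Plin1 and -3.10 for Lipe. Plin1 had 1 and 0 counts in the flat uninduced libraries, so its fitted value is no bound. Plin1 and Lipe were also called higher in uninduced spheroids than in flat uninduced culture, where 5.42% of tested genes were. Plin1 had 79 and 111 counts in those spheroids, and Lipe averaged 31.7 CPM there against 13.8 CPM in flat uninduced culture. Their interaction values thus include a higher level in spheroids before induction.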

How the results depend on the processing

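The main counts, Cfd included, were 689 genes and 1 member (flat induction), 139 and 0 (spheroid induction), 1440 and 2 (uninduced format), 1892 and 3 (induced format), and 58 and 0 (interaction). Cfd, kept by the filter only through its highest group, was the 1 member of flat induction and 1 of the 3 of the induced format. With no filter on low counts, spheroid induction called 336 genes and 1 member, and the interaction 209 genes. DESeq2 called 2 members in flat induction, 241 genes and 1 member in spheroid induction, and 163 genes in the interaction. Limma-voom with group weights called 1346 genes and 3 members in flat induction, 78 genes and 1 member in spheroid induction, 4 members in the uninduced format comparison and 97 genes in the interaction. Fits of the 4 compared libraries alone called 1213 genes and 3 members in flat induction, 0 genes in spheroid induction, 4 members in the uninduced format comparison, and 825 genes and 0 members in the induced one.

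Leaving out 1 library at a time gave 223 to 1141 genes and 0 to 3 members in flat induction, 24 to 1175 genes and 0 to 5 members in spheroid induction, 561 to 2081 genes and 0 to 4 members in the uninduced format comparison, 880 to 2875 genes and 0 to 5 members in the induced one, and 1 to 691 genes and 0 to 2 members in the interaction. Where that leaves 1 library in a group, it is assumed to vary like the others. Signs changed for C3 in spheroid induction (-0.91 to 0.0375), Serping1 in the uninduced format comparison (-1.18 to 0.0463), C4b in the induced one (-1.31 to 0.41), and C1ra (-0.55 to 0.26) and C1s1 (-0.99 to 0.17) in the interaction. With copies summed, the induced format difference of C4b was 0.0846. The causes were not tested.

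Deviations of same-numbered replicates correlated at 0.206 between the spheroid groups and at -0.00619 to 0.0265 in the other 5 pairs of groups, so not every pair deviated together and the numbers were not taken to pair the samples. With the replicate block, 639, 114, 1382, 1825 and 39 genes were called in the order above, no member's call changed, and C1s2 missed the threshold in uninduced cultures (-1.01, adjusted p = 0.0543, edgeR). Masp2 was called in both format comparisons under each alternative run. Of the values of single genes, 273 kept direction and call under alternatives other than leaving out a library, 13 lost a call, 21 gained one and 1 changed sign. With 1 library left out, 239 kept both, 52 lost a call, 23 gained one and 6 changed sign.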

Other observations

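Colec11, a lectin that can start complement and was too low to be tested, was chosen here after its values were seen. It had 73 counts (4.27 CPM) in 3D induced replicate 2 and 0 to 6 counts in each of the other libraries, 3D induced replicate 1 included at 0.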
